A study of Mus musculus with 6 samples.

Results

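The 10 transcription factors that mark the projection neurons of the striatum, Foxp1, Foxp2, Bcl11b, Ebf1, Isl1, Meis2, Zfp503, Rarb, Rxrg and Six3, were followed in striatal RNA of mice that overexpress Shank3. They were chosen by name and matched by Ensembl identifier through the GENCODE M21 annotation, and all 10 were found among the 46078 genes of the table. Each also passed the filter on low values, a mean of at least 10 normalized counts, that left 17605 genes for testing. The rule names genes and uses no measured value of theirs, although it was set with earlier results of these data known.

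The libraries came from male mice aged 12 weeks on a C57BL/6J background, 3 wild-type (WT) and 3 carrying an EGFP-tagged Shank3 transgene (TG), with 1 mouse for each library. Shank3 is a scaffold protein of the excitatory postsynapse, and the comparison asked which striatal transcripts differ when it is mildly in excess. The promoter that drives the transgene is not given in the sources used here, and whole striatum was dissected with a brain matrix, so each value is an average over all its cell types. Values are normalized read counts, that is, the reads counted for a gene divided by the size factor of the library, and differences are given as log2 fold changes of TG against WT on log2(value + 1).

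Between 27689589 and 36647626 read counts per library were assigned to genes. The defining effector genes of striatal projection neurons were present in every library, with a summed level of the 17 genes between 259149 and 344992 normalized counts in TG and between 303346 and 343114 in WT. Shank3 itself had 13807, 12918 and 13865 normalized counts in WT replicates 1, 2 and 3 and 29891, 28308 and 26044 in TG replicates 1, 2 and 3, a log2 fold change of 1.05 with an SE of 0.06 (limma, adjusted P = 7.04e-05). It was the single gene called by limma in the whole table at an adjusted P value of 0.05, which is 0.00568% of the genes tested. The study itself reported more genes at that threshold, Shank3 among them, with DESeq2 and P values corrected by fdrtool. Reads of the transgene and of the endogenous gene cannot be told apart in these values. Certain libraries stood apart in genes of other cells. Ttr, the transthyretin gene that choroid plexus makes in great amount, had 13701 normalized counts in TG replicate 1 and between 119.7 and 1122 in the others. In TG replicate 2 the genes of projection neurons and cholinergic interneurons were high and those of cortical neurons low. WT replicate 3 was close to it in the summed effector genes, at 343114 against 344992, and TG replicate 1 was lowest, at 259149. The summed level of 4 cholinergic markers was 1688 in WT replicate 3 and 2049 in TG replicate 2. Results are therefore also given without TG replicate 1 and without TG replicate 2.

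Striatal projection neurons are the GABAergic spiny neurons that carry the output of the striatum through a direct and an indirect pathway. They arise in the lateral ganglionic eminence, where homeodomain, zinc finger and forkhead factors set their fate, and many of these factors stay on in the adult neuron. Some are shared by both pathways, and others, such as Ebf1 and Isl1 for the direct pathway and Six3 for the indirect pathway, are needed for only one of them. Retinoic acid, made locally in the embryo, acts in the same lineage through heterodimers of a retinoic acid receptor such as Rarb with a retinoid X receptor such as Rxrg.

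These heterodimers bind pairs of a short half-site arranged as direct repeats, and a repeat with 5 bases between the half-sites is the form known from the retinoic acid-responsive start of Rarb itself. It is printed here because it ties 2 members of the list, the receptor and its partner, to a stretch of DNA. The stretch lies at chr14:16575506-16575535 (GRCm38.p6, RefSeq, minus strand) inside the annotated span of Rarb and covers bases 59 to 30 before a transcription start. Capitals mark the repeat, which runs from base 53 to base 37 before that start.
Rarb: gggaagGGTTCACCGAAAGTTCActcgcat
The half-site AGGTCA was searched together with its variant AGTTCA, and so were GGGTCA and its variant GGTTCA, on both strands and with 5 bases between the members of a pair, in RefSeq windows from 250 bases before to 50 bases after each start. Of the members, 9 were matched, with 13 windows, and Foxp2 was not among them. The Rarb window was the 1 that held the repeat, against 0.0974% of all 32851 windows (32 windows). Because the pattern searched is the form known from the start of Rarb, this match was given in advance. The share over all windows is therefore no test of the list. Of the 13 member windows, 12 held more CG pairs than the median window, which held 7. A match describes the letters in the window and not a bound site.

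All 10 factors were clearly expressed in adult striatum of both genotypes. Per kilobase of exon, the mean over the 6 libraries was highest for Rxrg, at 1429 normalized counts per kilobase, followed by Bcl11b at 976, Meis2 at 852, Foxp1 at 545 and Rarb at 506. The lower part of the order was Six3 at 226, Zfp503 at 114, Foxp2 at 110.2, Isl1 at 81.2 and Ebf1 at 42.8 normalized counts per kilobase. The span from Ebf1 to Rxrg was 33.4-fold. On this scale 3 members lay in the top 10% of the genes tested and 6 lay above the median gene.

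**Figure D1:**
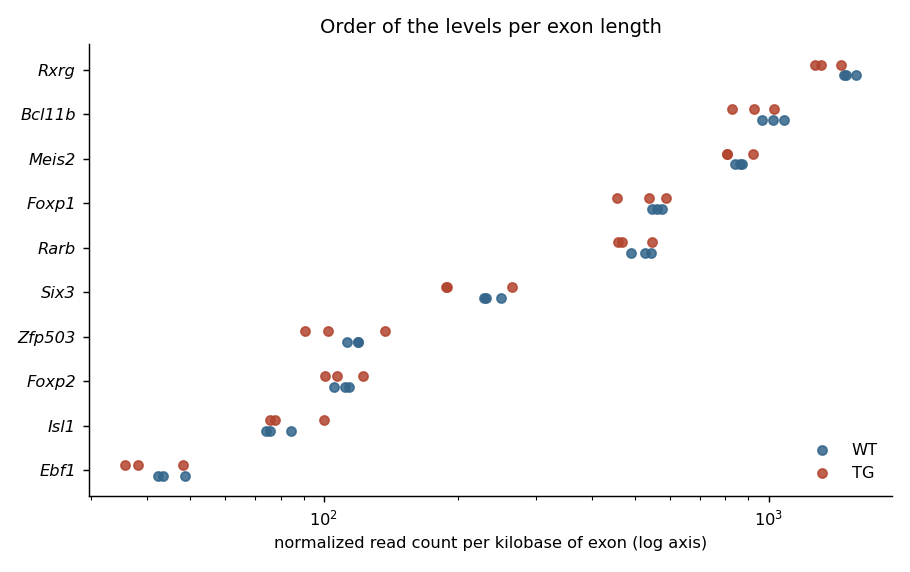
Normalized read count per kilobase of exon (log axis) for each factor, with 1 point for each library and colour for genotype. Rxrg stands at the top at a mean of 1429 and Ebf1 at the bottom at 42.8, and the colours overlap in every row but that of Rxrg.

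The ranges of neighbours in this order overlapped at 3 places. Bcl11b lay above Meis2 in 6 of 6 libraries, although their ranges overlapped. Foxp1 lay above Rarb in 5 of 6 libraries and Zfp503 above Foxp2 in 4 of 6, so these pairs did not differ beyond their spread. The place of Rarb is uncertain, because 2020 of its 5265 exon bases (38.4%) also belong to other annotated genes, 1793 of them to Top2b on the opposite strand. The library kit did not mark strand, and per kilobase of the 3245 bases that are its own Rarb would stand at 821 if all its reads came from them.

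The groups were then compared factor by factor, in the order of their roles. Measured over the list, 9 of the 10 means were lower in TG and 1, that of Isl1, was higher, while 50.8% of all genes tested were lower in TG. The median log2 fold change of the 10 factors was -0.10, against -0.0018 for all genes tested. No factor passed an adjusted P value of 0.05 with limma, edgeR or DESeq2. At an unadjusted P value under 0.05 each of these tools called 1 factor, Rxrg, against 2.33% of all genes tested that were lower in TG at that level with limma. In whole tissue, fewer cells of a type and less RNA per cell cannot be told apart.

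**Figure D2:**
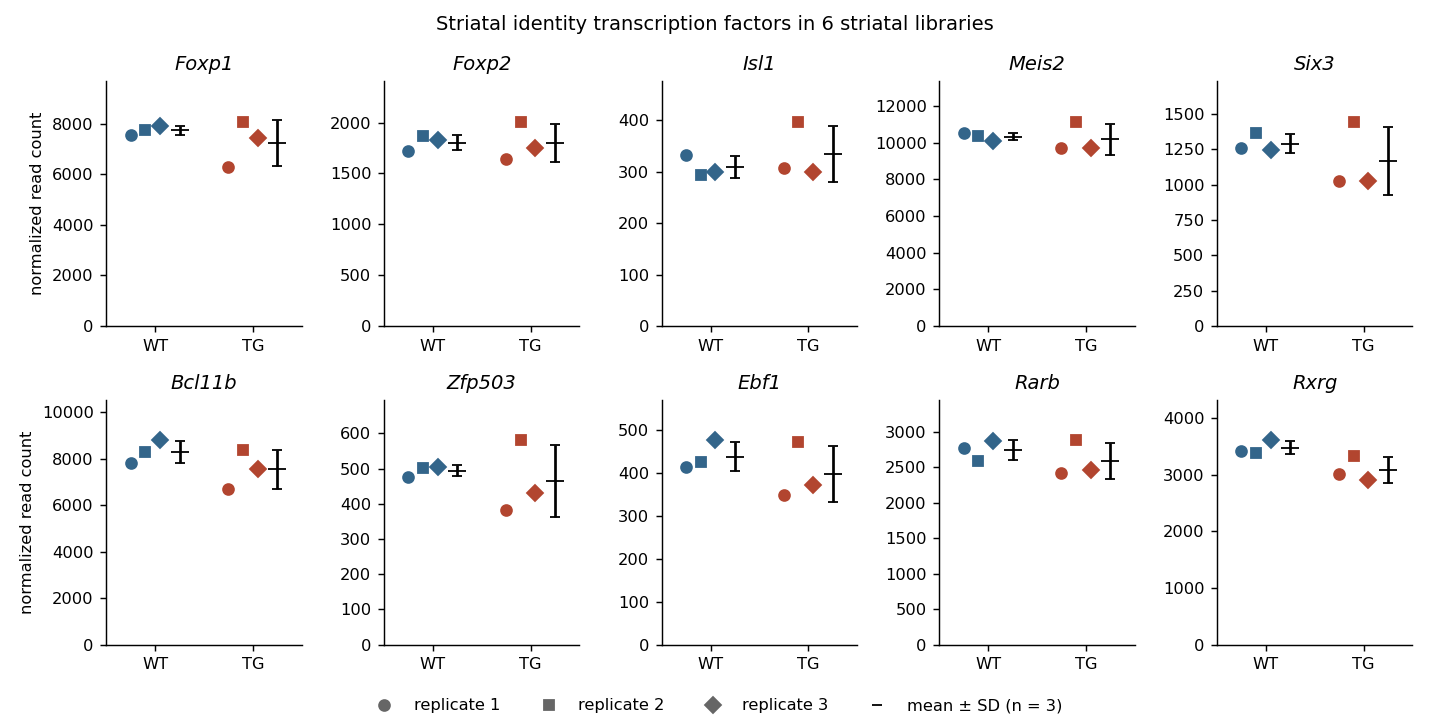
Normalized read count of each factor in the 3 WT and 3 TG libraries, with the mean and SD of each genotype beside the points, on axes that start at 0. In TG the square, replicate 2, is the highest point in all 10 panels, and in Rxrg alone the 2 genotypes do not overlap.

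Foxp1 and Foxp2 are forkhead repressors that can pair with each other, Foxp1 being present in both kinds of projection neuron. Foxp1 (ENSMUSG00000030067, chr6:98925338-99522721 on the minus strand, GRCm38) had 7536, 7734 and 7917 normalized counts in WT replicates 1, 2 and 3. In TG replicates 1, 2 and 3 it had 6271, 8070.2 and 7413. Only TG replicate 2 lay above all WT libraries, and the other TG libraries lay below all of them. The log2 fold change was -0.10 (SE 0.08, 95% interval -0.27 to 0.07; limma adjusted P = 0.971; exact permutation P = 0.6, two-sided), and it was 0.0013 without TG replicate 1 and -0.18 without TG replicate 2. The smallest P that this permutation test can give with 3 against 3 libraries is 0.1.

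Foxp2 (ENSMUSG00000029563, chr6:14901349-15441977 on the plus strand) held 1718, 1865 and 1826 normalized counts in the WT libraries and 1641, 2006 and 1751 in the TG libraries, in the order of the replicate numbers. The WT values lay inside the range of the TG values. Its log2 fold change of -0.007 had a 95% interval of -0.17 to 0.15, so a change of 1.2-fold in either direction lay outside it (limma adjusted P = 0.996). The ratio of Foxp1 to Foxp2 within a library, on the log2 scale, was 2.008 ± 0.074 in TG and 2.101 ± 0.043 in WT (SD, n = 3), and the groups overlapped.

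Bcl11b and Zfp503 are zinc finger factors. Bcl11b, also known as Ctip2, is needed for projection neurons to mature and to form the patch compartment, and Zfp503, or Nolz1, acts early in the lineage. Bcl11b (ENSMUSG00000048251, chr12:107910403-108003602 on the minus strand) was at 7825, 8281 and 8787 normalized counts in WT and at 6703, 8366 and 7541 in TG. TG replicates 1 and 3 lay below every WT library, and TG replicate 2 lay inside the WT range. The log2 fold change was -0.14 (SE 0.08, 95% interval -0.31 to 0.03; limma adjusted P = 0.971), the smallest unadjusted P of the list after that of Rxrg. Without TG replicate 1 the value was -0.06 and without TG replicate 2 it was -0.22.

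Zfp503 (ENSMUSG00000039081, chr14:21983959-21989601 on the minus strand) showed the widest spread of the list, with 383, 580.0 and 431 normalized counts in TG against 476, 502 and 504 in WT. One TG library was above all WT libraries and the others were below them. The interval of its log2 fold change, -0.39 to 0.17 around -0.11, held 0 and also a decrease of 1.2-fold (limma adjusted P = 0.971). The sign turned without TG replicate 1 (0.02), and without TG replicate 2 the value was -0.28.

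Meis2 is a homeodomain factor of the TALE class that works with other homeodomain proteins and marks the lineage of the lateral ganglionic eminence. Meis2 (ENSMUSG00000027210, chr2:115863064-116065839 on the minus strand) had 10521, 10369 and 10115 normalized counts in WT and 9717, 11138 and 9694 in TG, so that TG replicate 2 was the highest of the 6 libraries and the other TG libraries were the lowest. Its log2 fold change was -0.02 (SE 0.06, 95% interval -0.15 to 0.11; limma adjusted P = 0.986), and that interval left out a change of 1.2-fold in either direction. Without TG replicate 1 the estimate was 0.0079 and without TG replicate 2 it was -0.09.

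Ebf1 and Isl1 act in neurons of the direct pathway, Ebf1 as a helix-loop-helix factor and Isl1 as a LIM homeodomain factor. Isl1 is also present in cholinergic interneurons. Ebf1 (ENSMUSG00000057098, chr11:44617317-45008091 on the plus strand) had 413, 424 and 475 normalized counts in WT and 348, 471 and 372 in TG. TG replicate 2 was close to the highest WT library, and both other TG libraries were below all WT libraries. The log2 fold change was -0.15 with a 95% interval of -0.40 to 0.10 (limma adjusted P = 0.971), or -0.06 and -0.28 without TG replicates 1 and 2.

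Isl1 (ENSMUSG00000042258, chr13:116298281-116309689 on the minus strand) was the factor with the higher mean in TG, with 307, 397 and 299.9 normalized counts there and 333, 293 and 299 in WT. That difference rested on TG replicate 2, the only TG library above the WT range. The log2 fold change was 0.11 (SE 0.11, 95% interval -0.15 to 0.36; limma adjusted P = 0.971) and became -0.02 without that library. Markers of cholinergic interneurons were also high in that library. Slc5a7, the choline transporter, had 537, 939 and 647 normalized counts in the TG libraries and 584, 727 and 705 in the WT libraries, and Chat, choline acetyltransferase, had 309, 513 and 339.8 and 331, 399 and 449.6. All 4 cholinergic markers were above their WT mean in TG replicate 2 and none in TG replicates 1 and 3. In WT the orders differed, since Isl1 was highest in WT replicate 1, where 0 of 4 cholinergic markers were above their WT mean, and not in WT replicate 3, where all 4 were. Their part in the Isl1 values was not tested.

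Six3, a homeodomain factor needed for the indirect pathway, had 1259, 1365 and 1247 normalized counts in WT and 1029, 1444 and 1024 in TG (ENSMUSG00000038805, chr17:85613608-85629302 on the plus strand). TG replicates 1 and 3 were nearly equal and lay below all WT libraries, while TG replicate 2 lay above all of them. The log2 fold change was -0.16 (SE 0.12, 95% interval -0.42 to 0.09; limma adjusted P = 0.971), -0.08 without TG replicate 1 and -0.33 without TG replicate 2. The last value, with a limma adjusted P of 0.326, was the lowest estimate of any factor with a library left out. Six3os1, transcribed from the opposite strand and sharing 106 exon bases with Six3, was at 429 ± 96.7 in TG and 405 ± 26.2 in WT (SD, n = 3), and it too was highest in TG replicate 2, at 541. Gm28528, the other antisense gene, shares 168 exon bases with Six3 and was near the filter on low values, at 11.6 ± 3.55 in TG and 12.5 ± 5.1 in WT.

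Rarb and Rxrg are the nuclear receptors of the list. Rarb (ENSMUSG00000017491, chr14:16430839-16819156 on the minus strand) had 2772, 2585 and 2871 normalized counts in WT and 2419.7, 2877 and 2466 in TG. TG replicate 2 was the highest library by a small margin over WT replicate 3, and the other TG libraries were below all WT libraries. The log2 fold change was -0.09 with a 95% interval of -0.24 to 0.07 (limma adjusted P = 0.971), and -0.04 and -0.17 without TG replicates 1 and 2. Top2b, the DNA topoisomerase gene whose last exon bases overlap those of Rarb, had 3809 ± 122 normalized counts in TG and 3629 ± 53.3 in WT (SD, n = 3), a log2 fold change of 0.07 in the other direction.

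Rxrg (ENSMUSG00000015843, chr1:167598384-167639623 on the plus strand) was the one factor whose groups did not overlap. It had 3432, 3392 and 3612 normalized counts in WT and 3008, 3338 and 2915 in TG, and the highest TG library, replicate 2, was just under the lowest WT library. Its mean was 11.3% lower in TG, a log2 fold change of -0.17 (SE 0.06, 95% interval -0.30 to -0.05; limma unadjusted P = 0.0126, adjusted P = 0.971; exact permutation P = 0.1, two-sided). A lower level in every TG library than in every WT library was found for 1 of the 10 factors and for 5.05% of all genes tested. The estimate stayed negative with each library left out, lying between -0.23, where TG replicate 2 was omitted, and -0.13, where TG replicate 3 was. Of the nearest genes tested, Mgst3 started 204.5 kb away and had a log2 fold change of -0.07, and Aldh9a1 started 248.4 kb away and had one of -0.04, with overlapping groups in both.

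**Figure D3:**
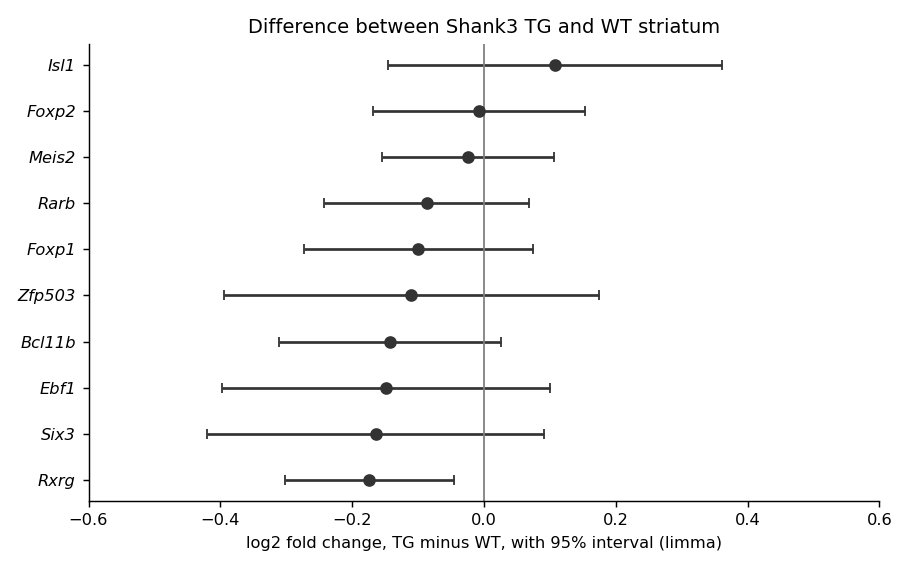
Log2 fold change of each factor, TG minus WT, with its 95% interval from limma. The interval of Rxrg, -0.30 to -0.05, is the single one that leaves out 0, and those of 7 factors reach a 1.2-fold change.

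The spread between libraries was larger than the counting error. The SD expected from counting alone was between 12.5% and 46.8% as large as the SD between libraries of a genotype. An SD above 0.108, the median of the genes tested on the log2 scale, was found for 8 of the 10 factors. Intervals of 9 factors held 0 and those of 7 factors held a change of 1.2-fold, so for these a change of that size was not excluded.

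The spread was on the TG side. In 10 of 10 factors the SD of the log2 value was larger over the TG libraries than over the WT libraries, against 54.8% of all genes tested. Highest over lowest library ranged from 1.145 to 1.52 among TG libraries and from 1.04 to 1.15 among WT libraries. TG replicate 2 was the highest TG library for 10 of 10 factors and the highest of all 6 libraries for 7. The lowest of all was TG replicate 1 for 6 factors and TG replicate 3 for 3.

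Genes that carry out the work of projection neurons showed the same order of TG libraries. These were 17 effector genes, among them dopamine receptors, peptides and enzymes of cyclic nucleotide signaling. None of the 10 factors and none of the 17 effector genes was above its WT mean in TG replicate 1 or TG replicate 3. In TG replicate 2 these counts were 9 of 10 and 17 of 17. The median log2 ratio to the WT mean of the factors was -0.26, 0.11 and -0.14 in TG replicates 1, 2 and 3, and that of the effector genes was -0.31, 0.12 and -0.12. Pde10a, the striatal phosphodiesterase and the most abundant effector gene, had 31505, 43623 and 37727 normalized counts in TG and 36461, 42861 and 45595 in WT. In WT the same medians ran from -0.04 to 0.03 for the factors and from -0.06 to 0.12 for the effector genes.

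Markers of cortical excitatory neurons, which lie next to the striatum, ran the other way. Of 9 markers, those above their WT mean numbered 9, 0 and 7 in TG replicates 1, 2 and 3. Slc17a7, the vesicular glutamate transporter of cortical neurons, had 29848, 20237 and 28555 normalized counts in TG and 28002, 26522 and 23867 in WT. The summed level of the list lay between 28411 and 40302 in TG and between 33050.4 and 37857 in WT. Tbr1, a cortical transcription factor, had 3042, 2438 and 3425 and 2857, 2871 and 2691. No cortical marker was at 0 in any group, and the part of cortical tissue in the levels of the 10 factors was not tested.

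**Figure D4:**
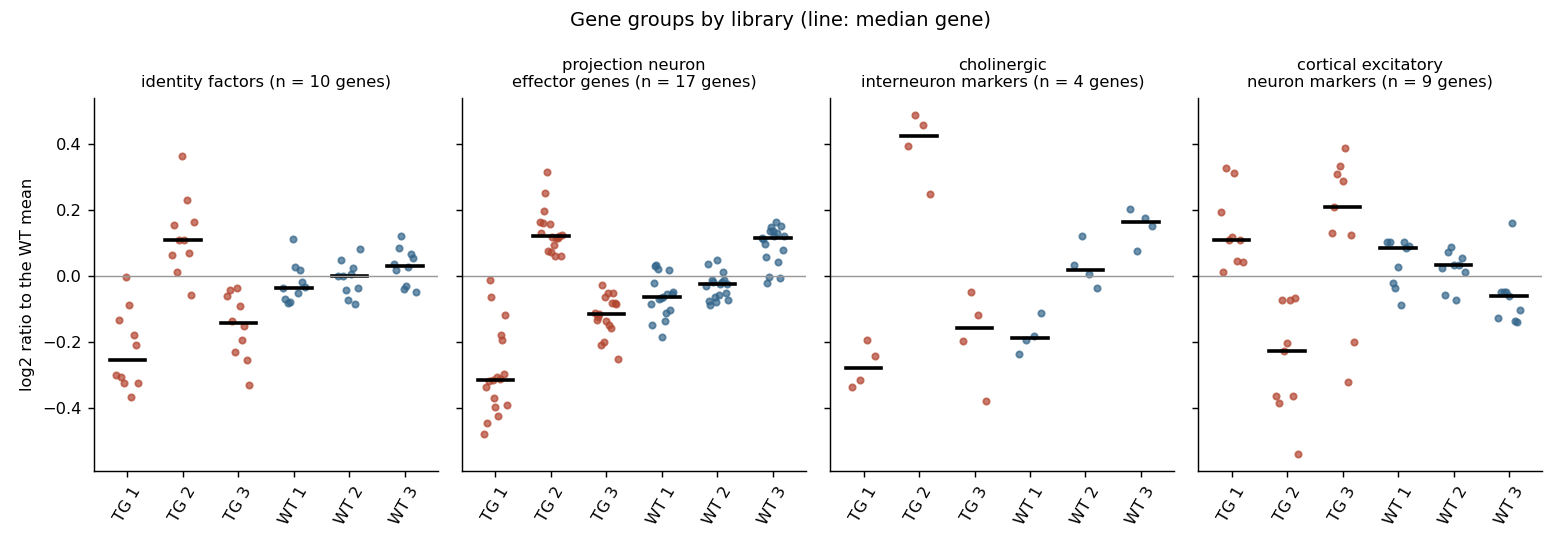
Log2 ratio of each gene to its WT mean in the 6 libraries, for the 10 factors, 17 effector genes, 4 cholinergic markers and 9 cortical markers. Points are genes and lines are medians: the factors and effector genes are low, high and low in TG replicates 1, 2 and 3, the cholinergic markers likewise, and the cortical markers high, low and high.

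Leaving out TG replicate 2 changed the number of factors without overlap most. All TG values then lay below all WT values for 8 of the 10 factors, all but Foxp2 and Isl1, against 10.4% of all genes tested. The same held for 11 of 17 effector genes, while 6 of 9 cortical markers lay higher in TG, against 10.8% of all genes tested that were higher in this way. No factor was called in that comparison either (limma). TG replicate 2 was the highest TG library for 10 of 10 factors, so its removal lowers the top of the TG range of each. That is not so for every gene tested, so the shares over all genes are not like for like. Without WT replicate 1, Isl1 was higher in TG and Rxrg lower with no overlap. Of the 17605 genes tested, 1832 were then higher and 1708 lower in this way. With TG replicate 1, TG replicate 3, WT replicate 2 or WT replicate 3 left out, Rxrg was the only factor without overlap. Genes tested that were lower in this way then numbered 2284, 1473, 1764 and 1652, in that order.

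**Figure D5:**
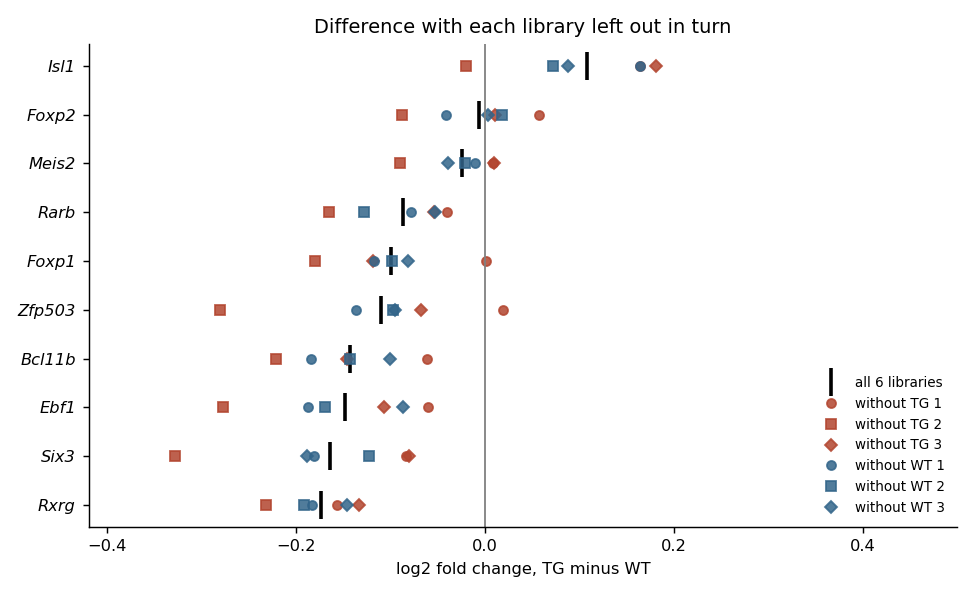
Log2 fold change of each factor with all 6 libraries (bar) and with each library left out in turn (symbols). Without TG replicate 2 every factor falls, to -0.33 for Six3, and without TG replicate 1 every factor shifts up.

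Markers of other cells had other orders of the libraries. Choroid plexus markers were high in TG replicate 1 (10 of 10 tested above the WT mean, summed level 15677), and Clic6, F5 and Sostdc1 were higher in every TG than in every WT library (F5 and Sostdc1 are named after their values were seen). Genes higher without overlap made up 5.06% of all genes tested. The summed level of the choroid plexus list was 1956 in TG replicate 2, with 8 of 10 markers above the WT mean, 681 in TG replicate 3 and between 596 and 947 in WT, and its part in the levels of the factors was not tested. Clic6, a channel protein of that epithelium, had 529, 487 and 311 in TG and 287, 284 and 309 in WT. Markers of neuroblasts and dividing cells were highest in WT replicate 2 (5 of 5 above the WT mean), with Dcx, the doublecortin gene, at 1709, 2085 and 1264 in WT and 1739, 1433 and 1498 in TG and Cd24a at 365, 515 and 305 and 396, 369 and 324. By list, the median log2 fold change was 1.12 for choroid plexus, where 10 of 10 tested were higher in TG, and -0.15 for neuroblasts and dividing cells, where 5 of 5 were lower. Thalamic, mural and endothelial lists had medians of 0.07, -0.09 and -0.06 (4, 9 and 6 genes). Slc17a6 and Tcf7l2 of the thalamic list both had log2 fold changes of 0.07, Rgs5 and Vtn of the mural list -0.08 and -0.18, while Flt1 and Cldn5 of the endothelial list 0.00026 and -0.25. No gene of any marker list passed an adjusted P value of 0.05.

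Ratios between factors within a library cancel any scaling common to both genes. Isl1 relative to Six3, the direct pathway factor over the indirect pathway factor, was -1.79 ± 0.06 in TG and -2.07 ± 0.15 in WT on the log2 scale (SD, n = 3), a difference of 0.27 with no overlap. Ebf1 relative to Six3 was -1.55 ± 0.08 and -1.56 ± 0.15, with overlapping groups. Rarb relative to Rxrg was -0.26 ± 0.05 in TG and -0.34 ± 0.04 in WT, also overlapping. Of the 45 pairs of factors, 6 had no overlap between the genotypes, against 9.42% of all pairs of genes tested, and Isl1 was in 4 of them, with Ebf1, Rarb, Rxrg and Six3. The other pairs were Foxp2 with Bcl11b and Meis2 with Rxrg. All pairs share the same 6 libraries, and these ratios are a description with no test.

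The relatives of the factors in the genome were next. Of 19 paralogs 15 were tested, none was called, and 12 were lower in TG, with a median log2 fold change of -0.07. For this list and those below, the share over all genes tested that was lower in TG was 50.8%. Rarg, a second retinoic acid receptor, had 444, 446 and 426 normalized counts in TG and 599, 473 and 487 in WT, with no overlap (log2 fold change -0.24, limma adjusted P = 0.971). Meis3, a relative of Meis2, was at 1031, 973 and 1003 and 1150.2, 1037 and 1104, also without overlap (-0.13, limma adjusted P = 0.971). These were the 2 of 15 without overlap, against 5.05% of all genes tested that were lower in this way. Among the paralogs that were higher, Rara and Six4 both had a log2 fold change of 0.11 (limma unadjusted P = 0.404 and 0.709), and Rxrb had one of -0.08.

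Per kilobase, Bcl11a was at 171 normalized counts against 976 for Bcl11b, and Rxrb was at 587 against 1429 for Rxrg. Rara and Rarg were at 75.9 and 112 against 506 for Rarb, so the member of the list was the more abundant in each of these families. Bcl11b relative to Bcl11a within a library was 1.73 ± 0.24 in TG and 1.88 ± 0.11 in WT on the log2 scale (SD, n = 3), and the groups overlapped. Bcl11a itself had a log2 fold change of 0.02.

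Cofactors, the proteins through which the factors act on chromatin, split almost evenly. Of 30 such genes, among them homeodomain partners of Meis2, corepressors of the Tle and Ncor kinds and subunits of the NuRD complex, 16 were higher, 14 were lower and none was called, with a median log2 fold change of 0.004. Ldb1, the adaptor of LIM factors such as Isl1, had 2836, 2854 and 2901 normalized counts in TG and 3057, 2917 and 3092 in WT (log2 fold change -0.08), the 1 cofactor of 30 without overlap, against 5.05% of all genes tested that were lower in this way. Rbbp4 and Chd4 of the NuRD complex were at 0.06 and -0.08, the corepressor Tle2 at -0.16, and Ncor1, the nuclear receptor corepressor, at 0.01.

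Other genes of striatal development included factors of the ganglionic eminences. Of 22 tested, 17 were lower in TG, 5 were higher and none was called, with a median log2 fold change of -0.07. Sp9, needed for indirect pathway neurons, had a log2 fold change of -0.16, Lhx6 of the medial eminence one of 0.14 and Gbx1 one of 0.36. The most abundant genes of the list, Mef2c and Sox8, were at 0.04 and -0.05.

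Genes that make, carry and break down retinoic acid gave 12 tested of 15, with 8 lower in TG, 4 higher, none called and a median of -0.08. Aldh1a1, a retinaldehyde dehydrogenase that is also known from dopamine neurons, had 846, 949 and 948 normalized counts in TG and 981, 1111 and 1070.1 in WT, without overlap (log2 fold change -0.20, SE 0.07, limma adjusted P = 0.971). It was the 1 of 12 without overlap, against 5.05% of all genes tested that were lower in this way. Dhrs3, which turns retinaldehyde back to retinol, was at -0.21, and Rdh11 at -0.06. Cyp26b1, an enzyme that clears retinoic acid, was at 0.16 and Crabp2, a retinoic acid carrier, at 0.26.

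Among the 17 effector genes 15 were lower in TG and 2 higher, none was called, and the median log2 fold change was -0.09. The 2 higher genes were Tac1 and Pdyn, peptide genes of the direct pathway, at 0.07 and 0.0097, with 3513, 4561 and 3601 normalized counts of Tac1 in TG and 3726, 3621 and 3659 in WT. Gpr6, a receptor of the indirect pathway, was at -0.17, Ppp1r1b, which encodes DARPP-32, at -0.15, and Adcy5, the striatal adenylyl cyclase, at -0.14. None of the 17 was without overlap between the genotypes when all libraries were kept. Larger SD over TG than over WT libraries was found for 17 of 17.

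Foxp1 also has exon bases in common with other genes. It shares 135 with Gm49348, listed at 0 in every library, and 300 with Gm20696, which had 1.6 ± 0.425 normalized counts in TG and 1.36 ± 1.48 in WT. Gm48162, which shares 227 exon bases with Rarb, was not among the genes measured and has no values here. Its shared bases are counted in the 2020 given above for Rarb. For Rarb and Six3, reads from the antisense genes cannot be told apart from their own where the exons overlap.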

How the data were processed

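Striatal RNA of 3 WT and 3 TG mice was sequenced as paired-end libraries prepared with a kit that does not mark strand. Per the labels and the methods of the study, the authors trimmed reads with Trimmomatic 0.35, mapped them to GRCm38 with TopHat2 2.1.0, used HTSeq for gene counts and scaled these by DESeq2 size factors. The deposited values are this normalized signal. The strand setting and the annotation release are not given in the sources used here. Dividing by the smallest value above 0 gave whole reads within 0.01 for 100% of values in each library. Gene names and positions came from GENCODE M21 (45229 of 46078 identifiers matched) and promoter windows from RefSeq (GRCm38.p6).

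The test was limma 3.58.1 (trend fit) on log2(value + 1), run on the 17605 genes whose mean reached 10, and P values were adjusted over all of these by Benjamini-Hochberg at 0.05. Counting tests on the recovered reads were alternatives, and edgeR 4.0.16 called 1 gene and DESeq2 1.42.0 called 7 genes (R 4.3.3). Exact permutation tests were two-sided (scipy 1.17.1). The fits were tested on simulated data. Pairs of libraries correlated at 0.992 to 0.995 and had a chi-squared per gene against counting error of 4.96 to 13.5, so none was a copy.

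Same-numbered TG and WT replicates did not deviate together, and no block was used. Each mouse gave 1 library, as the methods state. The members and lists were chosen with earlier results of these data known. Named are the 10 factors, Shank3, in each list the 2 genes with the smallest P in each direction and the 2 with the highest mean, in each marker list the 2 with the highest mean, genes whose exons overlap a factor, and the 2 nearest genes tested to a factor with an unadjusted P under 0.05. F5 and Sostdc1 are named outside this rule, and some genes that it covers are not reported here. The count of genes with a larger SD in TG the count without TG replicate 2 over all genes, the counts higher without overlap and the share of gene pairs were also added after the values were seen. Alternatives are listed in the closing section.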

Additional observations from a re-analysis of the deposited data

How the results depend on the processing

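The count of factors called stayed at 0 under every alternative run with limma, DESeq2, edgeR or limma-voom, other scalings, filters and pseudocounts, a cortical marker covariate, a replicate block, each library left out, or an adjusted P value of 0.1, and the counts of paralogs, cofactors, striatal development, retinoic acid and effector genes called stayed at 0 wherever they were recomputed. The count of all genes called moved from 1 to 7 with DESeq2, 12 when libraries were scaled to the projection neuron effector genes, 5 without a filter on low values, 3 with the cortical marker covariate and 4 at an adjusted P value of 0.1, and it lay between 1 and 2 with libraries left out, 2 being without TG replicate 2 or TG replicate 3. The causes were not tested. The number of factors without overlap lay between 1 and 8 with libraries left out, the 8 being without TG replicate 2. Genes lower in TG without overlap then made up 10.4% of all genes tested. TG replicate 2 was the highest TG library for 10 of 10 factors, so that share is not like for like. Bcl11b, Ebf1, Rxrg and Six3 kept their direction in every alternative.

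Directions turned in these cases. Scaling to the effector genes, which raised the median of all genes by 0.09 in TG, gave 0.0844 for Foxp2, 0.0671 for Meis2 and 0.00462 for Rarb. When single libraries were dropped, estimates ran from -0.181 to 0.00131 for Foxp1, from -0.0879 to 0.0568 for Foxp2, from -0.0206 to 0.181 for Isl1, from -0.0905 to 0.00968 for Meis2 and from -0.281 to 0.0184 for Zfp503. The lowest value of Foxp1, Foxp2, Isl1, Meis2 and Zfp503 came without TG replicate 2 in each case. The median log2 fold change of the factors lay between -0.20 (TG replicate 2 dropped) and -0.02 (TG replicate 1 dropped), and it was -0.01 with the effector gene scaling.

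Replicate numbers were shared by the genotypes, but the deviations of same-numbered libraries correlated at 0.047, 0.016 and 0.093, and TG replicate 3 alone of the TG libraries correlated best with its own number. With the replicate number as a block (replicate block), 1 gene and 0 factors were called, as without it.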
